A study of Mus musculus with 4 samples.

Results

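The cells described here are 159 thymocytes of the CD25+ gate in which transcripts of the transcription factor Maf and of Il2ra (CD25) were detected and those of the recombinase gene Rag1 were not. There were 88 of them in the knockout-labelled CD25+ library and 71 in the WT CD25+ library. They came from 18325 barcodes of those libraries, out of 23210 barcodes of all 4 libraries, that held at least 500 genes and under 10% mitochondrial UMIs (unique molecular identifiers, each marking 1 captured transcript). The rule asked for at least 1 UMI of Maf and of Il2ra, for 0 UMIs of Rag1, Cd4, Gzma and Foxp3, for fewer than 5 UMIs of Mki67, and for fewer than 2 UMIs of Cpa3, Lyl1 and Hhex together. These values chose the cells and are given below as description. The question put to them is whether their transcripts are those of cells past β-selection or of cells on the γδ path.

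The series compared thymi of PD-1 knockout and WT C57BL/6J mice aged 3 weeks. For each genotype, thymi of 4 animals were pooled, cells bearing CD8 were depleted, and live CD4+ HSA+ CD73- cells were sorted as CD25+ or as CD25-. The list of stains names CD74 and not CD73, and the labels do not say whether 1 pool served both gates. Libraries were made with the 10x Genomics 5′ kit, 1 for each of the groups knockout CD25+, WT CD25+, knockout CD25- and WT CD25-, so no difference between groups has a replicate and none was tested. All intervals below are 95% intervals and cover counting error only. Which part of Pdcd1, the gene of PD-1, was deleted is not stated in the labels. Its transcripts were not lower in the knockout-labelled CD25+ library, with 18.3 CPM (UMIs of a gene per 1000000 UMIs of the summed cells) over its kept cells and 15.7 CPM over those of the WT library. Whether the counted 5′ reads lie inside the deletion is not known, so this level does not check the label, and the library is called by it. The CD25+ libraries share 118 kept barcodes, and 2 barcodes of the selected cells also occur in the other CD25+ library, outside the rule there.

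In the mouse thymus, CD25+ double-negative cells rearrange the β, γ and δ loci of the T cell receptor with the Rag1 and Rag2 recombinase. A β chain that pairs with the pre-Tα chain (Ptcra) passes the cell through β-selection, whereas a γ and a δ chain form a complete receptor. Signals of either receptor end recombination and induce Egr factors, their partner Nab2 and the E protein inhibitor Id3. In the mouse, Maf is known for its part, with Sox13, in γδ cells that make IL-17, and in several effector αβ T cells. PD-1 is an inhibitory receptor that appears on thymocytes after such receptor signals.

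Sequences of the receptor segments are printed first because the question turns on the counts of these segments. They were read from the GENCODE vM21 transcripts (GRCm38, the mm10 assembly). The first 3 are matching stretches of the V exons of γ segments, which are nearly identical. Capitals mark bases that differ from Trgv2, the γ segment with the most UMIs in these cells. Tcrg-V1 also lacks 3 bases of the Trgv2 stretch, a gap that the capitals do not show. Over the whole V exon Tcrg-V1 was 96.1% identical to Trgv2 (292 of 304 aligned bases) and Tcrg-V3 94.4% (287 of 304). Reads of these 3 segments can therefore be split wrongly among them, and they are best read as 1 group.
Trgv2, chr13:19336730-19336819 (minus strand): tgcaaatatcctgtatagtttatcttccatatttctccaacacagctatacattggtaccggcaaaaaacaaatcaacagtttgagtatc
Tcrg-V1, chr13:19340211-19340297 (plus strand): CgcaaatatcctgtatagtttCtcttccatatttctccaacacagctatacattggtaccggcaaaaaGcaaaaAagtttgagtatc
Tcrg-V3, chr13:19243055-19243144 (plus strand): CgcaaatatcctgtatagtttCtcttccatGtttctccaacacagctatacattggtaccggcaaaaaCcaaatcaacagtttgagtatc

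The next 6 are the last 60 bases of V exons of the δ and β segments named below, with the codon of the conserved cysteine in capitals, at which the joined CDR3 of a receptor begins. Trdv5 and Trdv2-2 belong to the δ locus, the segments with dv in their names are shared by the α and δ loci, and Trbv13-2 and Trbv15 belong to the β locus. They differ along the stretch. Over the whole V exon Trav15-2-dv6-2 was 78.5% identical to Trav15-1-dv6-1 (233 of 297 aligned bases), less than the γ segments above. The other printed segments were not compared with their closest relatives, so how well their reads can be told apart was not tested. The deposited counts are per gene and hold no assembled receptor, so a UMI of a V segment does not show that the rearrangement was in frame, or that the segment had been rearranged at all.
Trdv5, chr14:54148662-54148721 (minus strand): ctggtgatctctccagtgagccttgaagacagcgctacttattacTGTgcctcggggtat
Trdv2-2, chr14:53961543-53961602 (plus strand): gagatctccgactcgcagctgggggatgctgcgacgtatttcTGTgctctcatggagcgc
Trav15-1-dv6-1, chr14:53560188-53560247 (plus strand): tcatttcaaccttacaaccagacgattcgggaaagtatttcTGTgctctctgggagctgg
Trav15-2-dv6-2, chr14:53649935-53649994 (plus strand): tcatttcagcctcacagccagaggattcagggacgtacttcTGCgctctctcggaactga
Trbv13-2, chr6:41121773-41121832 (plus strand): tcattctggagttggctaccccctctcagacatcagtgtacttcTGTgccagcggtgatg
Trbv15, chr6:41141599-41141658 (plus strand): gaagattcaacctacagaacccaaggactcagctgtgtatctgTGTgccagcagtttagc

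The cells made up 0.870% (0.699 to 1.07) of kept barcodes in the knockout-labelled CD25+ library, against 0.864% (0.676 to 1.09) in the WT CD25+ library, and the intervals overlap almost wholly. These near-equal shares depend on the rule. Its step on Gzma took the cells from 177 to 89 in the knockout-labelled library, but from 100 to 78 in the WT library. In the CD25- gate 0 knockout-labelled cells and 1 WT cell met the rule. The median depth was 6303.5 UMIs in knockout-labelled cells and 8355 UMIs in WT cells, and the summed depth, which limits every value below, was 664690 and 614148 UMIs. Of the cells, 58 of 88 knockout-labelled and 49 of 71 WT cells held exactly 1 Maf UMI, so most of them sit at the edge of the rule. Exactly 1 Il2ra UMI was found in 11 knockout-labelled and 6 WT cells. Just outside the rule lay 10 knockout-labelled and 18 WT cells with Maf and exactly 1 Rag1 UMI.

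The cells were set against 2 groups of the same libraries that pass the same filters. Maf-zero cells meet every other part of the rule without Maf (1144 knockout-labelled and 1077 WT cells, median 3669 and 4278 UMIs). Rag1-positive cells also have no Maf and hold Rag1 (2215 and 2349 cells, median 5073 and 5689 UMIs). A cell with more UMIs is more likely to show a Maf UMI, and the selected cells were deeper than both groups in both libraries. Maf was detected in 7.14% (5.77 to 8.73) of the knockout-labelled cells that met the other criteria without Rag1, and in 6.18% (4.86 to 7.74) of such WT cells, but in 1.34% and 2.45% of those with Rag1. A fold of 1.5 in both libraries was used to sort genes, over genes with at least 20 CPM on either side.

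The genes that mark these cells were chosen from these same data and are a description. Maf (chr8:115682942-115707794) stood at 206 CPM (173 to 244) in knockout-labelled and 174 CPM (143 to 211) in WT cells. Pdcd1 (chr1:94038305-94052553) stood at 122 CPM (96.8 to 151) in knockout-labelled cells, against 28.2 CPM in Maf-zero and 3.85 CPM in Rag1-positive cells of that library. In WT cells it stood at 74.9 CPM (54.8 to 99.9), against 26.9 and 2.45 CPM. In both libraries the level was thus above those of these 2 groups, and it was carried by 32 of 88 knockout-labelled and 22 of 71 WT cells. Fhl2 (chr1:43123074-43196984), a LIM-domain cofactor, was 5.17-fold (3.33 to 7.94) and 5.23-fold (3.62 to 7.48) above Maf-zero cells in the knockout-labelled and WT libraries. Ybx3 (chr6:131364855-131388476), a cold-shock domain protein that binds RNA and DNA, was 2.04-fold and 1.76-fold above them, and Srm (chr4:148591503-148594993), the spermidine synthase, 1.90-fold and 1.6-fold.

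Of the lists of lineage genes, the β-selection list had a median ratio above 1 and the list of resting CD25+ cells one below 1 in the selected cells over Maf-zero cells, while the median of the γδ list lay slightly below 1. Over all 6856 genes tested in both libraries, 213 (3.11%) were higher by that fold in the selected cells than in Maf-zero cells, 616 (8.98%) were lower, and 13 (0.19%) passed it in opposite directions. Against Rag1-positive cells, 890 of 7062 genes (12.6%) were higher, 1219 (17.3%) lower and 4 (0.0566%) opposite. As Maf divides the groups, these shares are read only as the background of the lists. The plot of listed genes shows these lists gene by gene.

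**Figure D1:**
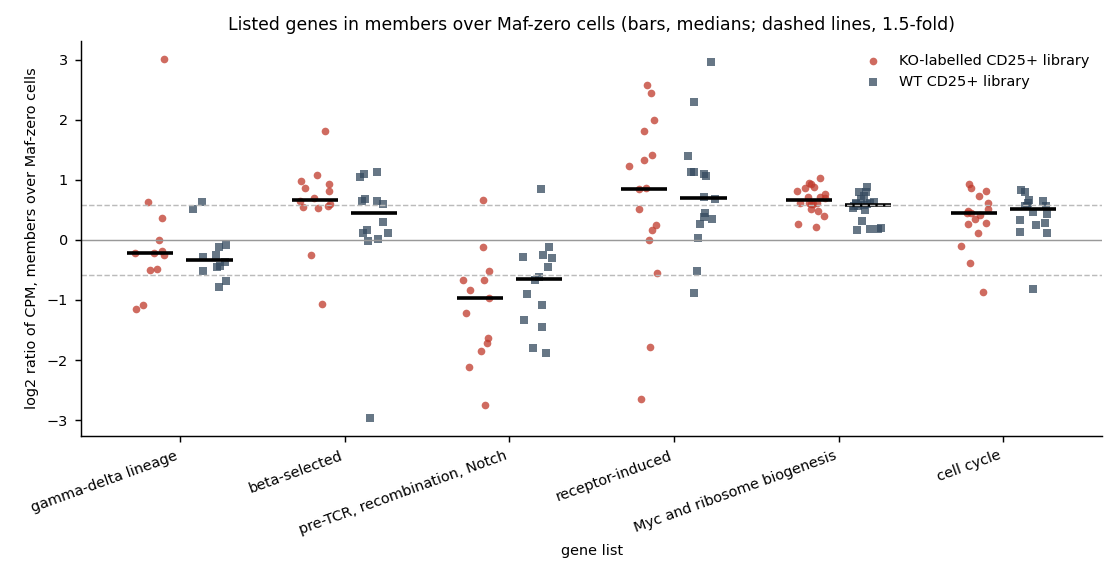
Log2 ratio of the level (CPM) in the selected cells (members) over Maf-zero cells for the genes of 6 lists, 1 point a gene with at least 20 CPM on either side, circles for the knockout-labelled and squares for the WT CD25+ library. Bars are list medians and dashed lines 1.5-fold; medians are 0.67 and 0.45 for the β-selected list and −0.96 and −0.65 for the list of pre-TCR, recombination and Notch genes in the knockout-labelled and WT libraries.

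Genes of recombination, the pre-TCR and Notch, which mark CD25+ cells before a receptor signal, were mostly lower. Of 13 tested, 8 were lower in both libraries than in Maf-zero cells and 1 was higher, with median log2 ratios of −0.96 in the knockout-labelled and −0.65 in the WT library, against −0.06 and −0.06 over all genes. Ptcra, the pre-Tα chain, stood at 149 CPM (121 to 181) in knockout-labelled cells, against 465 CPM in Maf-zero and 883 CPM in Rag1-positive cells. In WT cells it stood at 122 CPM (96.1 to 153), against 426 and 857 CPM. Rag2 stood at 0.149 (0.0541 to 0.327) of its Maf-zero level in the knockout-labelled and 0.271 (0.143 to 0.468) in the WT library. Rag2 was not part of the rule, but its partner Rag1 was, so the rule bears on it. Maf-zero cells were also shallower (medians of 3669 and 4278 UMIs, against 6303.5 and 8355). A Rag1 count of 0 can therefore miss more Rag1-expressing cells among them. The part of this in the lower levels of this list was not tested. Notch1, the receptor that commits these cells to the T lineage, was at 0.564 and 0.627 of the Maf-zero level, its relative Notch3 at 0.306 and 0.398, and the Notch target Hes1 at 0.430 and 0.537. Bcl11b, the commitment factor, was at 0.277 and 0.367. The exception, Tcf7 (TCF-1), was 1.59-fold and 1.79-fold higher. Against Rag1-positive cells 11 of 13 were lower and 1 was higher in both libraries.

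Some genes of β-selected cells were higher. Of 14 tested, 6 were higher than in Maf-zero cells in both libraries (Cd28, Lef1, Id3, Ikzf3, Egr1 and Cd6) and 1 was lower (Cd2), while the other 7 did not pass in both, with medians of 0.67 and 0.45. Summed over the list, the level was 4021 CPM in knockout-labelled cells, against 2542 CPM in Maf-zero cells, a ratio of 1.58 (1.52 to 1.65). In WT cells it was 3397 CPM, against 2651 CPM, a ratio of 1.28 (1.22 to 1.34). Id3 and Egr1 of this list are also among the receptor-induced genes described next, which belong to both paths. The co-receptor Cd28 stood at 149 CPM in knockout-labelled and 122 CPM in WT cells, 1.77-fold and 1.61-fold above Maf-zero cells and 3.83-fold and 4.89-fold above Rag1-positive cells. Ikzf3 (Aiolos), a zinc-finger factor that follows pre-TCR signals, was 1.98-fold (1.46 to 2.63) and 2.07-fold (1.45 to 2.90) above Maf-zero cells. Lef1, a partner of β-catenin, was 1.56-fold and 1.57-fold above them. Cd5, whose level follows receptor signal strength, was 2.11-fold (1.65 to 2.68) above Maf-zero cells in the knockout-labelled but 1.01-fold (0.735 to 1.35) in the WT library, and 17.4-fold and 12.3-fold above Rag1-positive cells. Cd2 rested on 4 knockout-labelled and 1 WT cells. Cd8a, which rises only later, had 0 UMIs in both libraries, under the floor of 3 counts that a count of 0 allows.

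Several genes induced by receptor signals were higher as well, and they belong to both paths. Of 16 tested, 8 were higher than in Maf-zero cells in both libraries and 1, Nr4a3, was lower, with medians of 0.85 and 0.70. Nab2, which binds Egr factors, stood at 122 CPM (96.8 to 151) in knockout-labelled cells, against 22.5 CPM in Maf-zero and 1.09 CPM in Rag1-positive cells. In WT cells it stood at 94.4 CPM (71.7 to 122), against 19.2 and 1.22 CPM. It was among the genes with the largest ratios in both libraries, at 5.42-fold and 4.91-fold over Maf-zero cells. Id3 was 3.51-fold (2.94 to 4.17) and 2.15-fold (1.71 to 2.67) over Maf-zero cells, and Egr1 1.82-fold and 2.20-fold. Nfatc1, a calcium-regulated factor, was 2.66-fold and 2.64-fold over them. Egr2 was 5.97-fold and 7.76-fold, but it did not meet the rule for named genes, which asks for 50 UMIs and an interval leaving out 1. Tox, a factor of thymocyte selection, was 2.35-fold and 2.20-fold higher. Egr1 is also known to be induced by tissue dissociation. Of 2 other such genes, Jun was at 0.420 and 0.482 and Fos at 0.529 and 0.655 of their Maf-zero levels, and the part of dissociation in the Egr1 level was not tested.

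**Figure D2:**
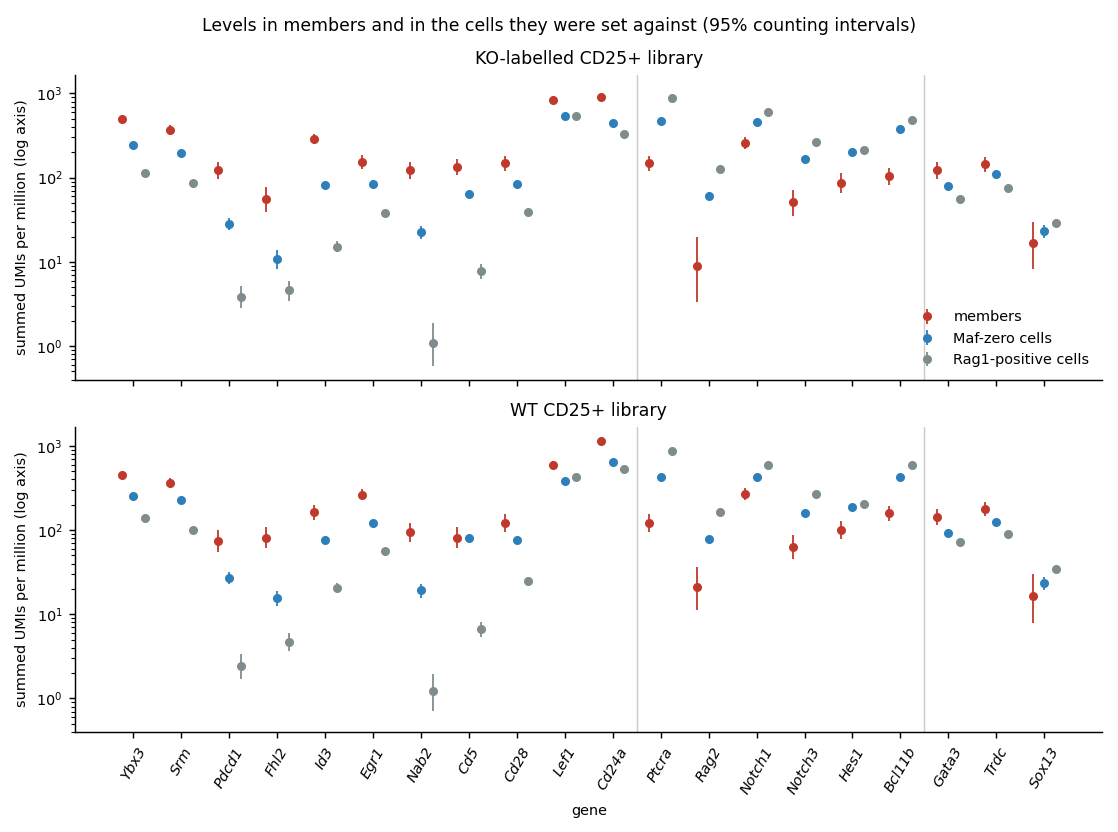
Level (CPM, log axis) of 20 genes in the selected cells (members, left), Maf-zero cells (middle) and Rag1-positive cells (right) of the knockout-labelled (upper panel) and WT CD25+ library (lower panel), with bars for 95% counting intervals. Markers, receptor-signal genes, genes of the β-selection list and Cd24a, which is on no list, stand left of the first grey line. Genes of resting CD25+ cells stand between the lines and γδ lineage genes at the right. Nab2 reads 122, 22.5 and 1.09 CPM in the upper panel and Ptcra 149, 465 and 883 CPM.

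The γδ lineage list, in contrast, was not higher as a whole. Of its 23 genes, 11 reached the level needed in both libraries, 1 of them (Gata3) was higher than in Maf-zero cells in both and 0 were lower, with medians of −0.22 and −0.33. Its summed level was 1330 CPM in knockout-labelled cells, against 1499 CPM in Maf-zero cells, and 1920 CPM in WT cells, against 2217 CPM. The ratios were 0.887 (0.827 to 0.951) and 0.866 (0.815 to 0.919), slightly below 1 in both libraries. Against Rag1-positive cells, 2 of 11 tested were higher in both libraries (Gata3 and Trdc) and 3 lower (Sox13, Tmem176a and Tmem176b). Over all genes, 12.6% were higher and 17.3% lower in that comparison. Gata3, a factor that αβ and γδ cells share, was 1.54-fold (1.20 to 1.96) and 1.55-fold (1.22 to 1.94) higher. Trdc, the constant segment of the δ chain (chr14:54142851-54148868), stood at 144 CPM (117 to 176) in knockout-labelled and 179 CPM (147 to 216) in WT cells, 1.29-fold (1.03 to 1.61) and 1.43-fold (1.16 to 1.75) over Maf-zero cells. Both ratios lie under the fold used, and against Rag1-positive cells they were 1.89 and 1.98. Sox13, a factor of γδ cells that make IL-17, stood at 16.5 CPM (8.26 to 29.6) in knockout-labelled and 16.3 CPM (7.81 to 29.9) in WT cells, 0.713 and 0.695 of the Maf-zero level, with intervals that include 1. Il23r, Ccr6, Ccr2 and Trdv4 had 0 UMIs in both libraries, Zbtb16 (PLZF) had 1 UMI in knockout-labelled and 0 in WT cells, and Blk had 3 and 2 UMIs. At this depth a count of 0 allows up to the floor of 3 UMIs, so lower levels were not detectable. Etv5, which Egr signals and γδ cells induce in the mouse, was 8.10-fold (4.06 to 16.2; 19 UMIs) over Maf-zero cells in the knockout-labelled library and 2.33-fold (0.683 to 6.39; 5 UMIs) in the WT library. The transcripts of the γ constant segment Tcrg-C1 were at 0.471 and 0.740 of the Maf-zero level.

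Transcripts of V segments speak to the same question cell by cell. A cell was counted for a chain where 1 V segment of it had at least 3 UMIs, a minimum set after the data had been seen. A β segment was found in 55 of 88 knockout-labelled cells (62.5%, 51.5 to 72.6) and in 54 of 71 WT cells (76.1%, 64.5 to 85.4). Among Maf-zero cells the shares were 23.2% and 31.5%, among Rag1-positive cells 9.66% and 20.5%, and among Foxp3+ Cd4+ cells, which carry an αβ receptor, 84.4% and 86.5%. The β shares of the selected cells thus lay between those of Maf-zero and Foxp3+ Cd4+ cells in both libraries. Cells with Il2ra, without Cd4 or Foxp3, and with at least 2 UMIs of Cpa3, Lyl1 and Hhex together were taken as early progenitor-like. They were deeper, with medians of 14862 and 14789 UMIs. A β segment without a δ segment was found in 47.3% and 53.4% of them, against 46.6% and 49.3% of the selected cells. After the thinning described below these shares were 4.67% and 11.7%, against 31.0% and 46.5%.

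A δ segment, counting those shared with the α locus, was found in 21 of 88 knockout-labelled cells (23.9%, 15.4 to 34.1) and 23 of 71 WT cells (32.4%, 21.8 to 44.5). It was found in 4.20% and 6.13% of Maf-zero cells, 1.31% and 4.77% of Rag1-positive cells, and 5.19% and 6.87% of Foxp3+ Cd4+ cells. With segments of the δ locus alone the shares were 18.2% and 21.1%, against 2.80% and 3.62% in Maf-zero cells. In Foxp3+ Cd4+ cells they were 0.472% and 0.509%. Those cells are of a later stage with an αβ receptor, so their share does not set a background for the selected cells. A γ segment was found in 71.6% and 93.0% of the selected cells, in 45.5% and 67.5% of Maf-zero cells and in 53.9% and 84.2% of Rag1-positive cells. γ transcripts were therefore common in cells with and without Maf.

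Because the selected cells were deeper, each cell was thinned to 1500 UMIs and a segment was asked for 2 UMIs. All but 1 knockout-labelled cell reached that depth, whereas 61 knockout-labelled and 64 WT Maf-zero cells did not. The share with a β segment was then 33.3% (23.6 to 44.3) in knockout-labelled and 49.3% (37.2 to 61.4) in WT cells, against 17% and 22.8% of Maf-zero cells. The share with a δ segment was 10.3% (4.84 to 18.7) and 8.45% (3.16 to 17.5), against 1.94% and 2.86%. Both orders held at equal depth. For γ segments the order did not hold, with 39.1% and 46.5% of the selected cells and 31.0% and 52.3% of Maf-zero cells.

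**Figure D3:**
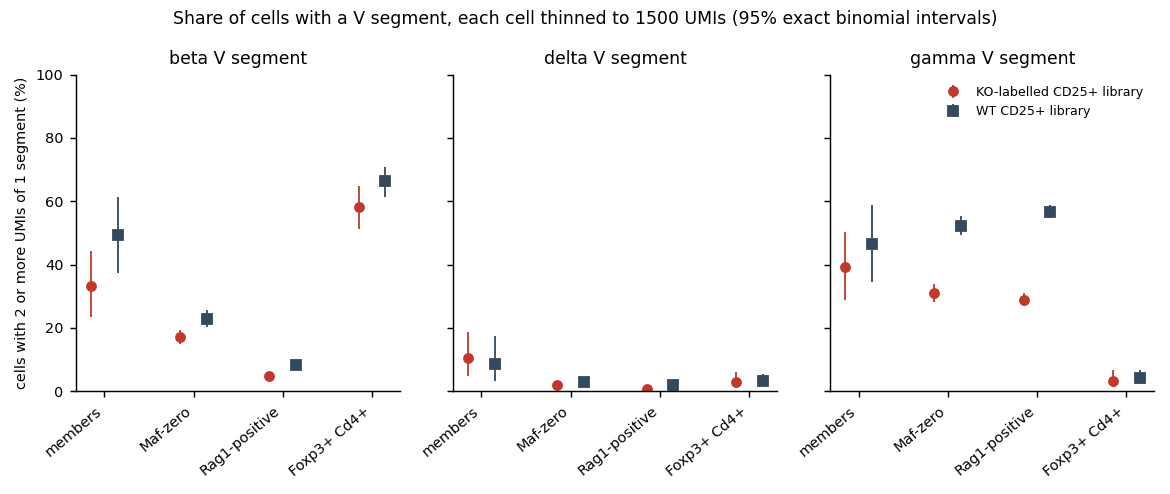
Percent of cells with at least 2 UMIs of 1 β, δ or γ V segment after each cell was thinned to 1500 UMIs, for the selected cells (members) and 3 other groups of the knockout-labelled (circles) and WT (squares) CD25+ libraries, with 95% exact binomial intervals. For β the selected cells stand at 33.3% and 49.3%, between Maf-zero and Foxp3+ Cd4+ cells. For δ they are the highest of the groups drawn, at 10.3% and 8.45%. Cells with Maf and Gzma are not drawn. For γ the WT share of 46.5% is below the 52.3% of Maf-zero cells.

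Many cells held more than 1 kind of chain. A β segment without a δ segment was found in 41 knockout-labelled (46.6%) and 35 WT cells (49.3%), both in 14 (15.9%) and 19 (26.8%), a δ segment alone in 7 (7.95%) and 4 (5.63%), and neither in 26 (29.5%) and 13 (18.3%). Among Maf-zero cells 75.6% and 66.1% had neither, and 2.97% and 3.71% had both. Of the cells with a δ segment, 14 of 21 knockout-labelled and 19 of 23 WT cells also had a β segment, but cells with both were deeper (medians of 8628.5 and 9335 UMIs) than cells with a β segment alone. After thinning, 2 cells of each library had both, against 7 knockout-labelled and 4 WT cells with a δ segment alone. But thinning also raised the share with neither to 58.6% in knockout-labelled and 45.1% in WT cells. A cell with both leaves that class when either segment drops out. These counts therefore cannot show how many cells with a δ segment hold both chains. The plot of segments per cell shows that the classes run into each other near the minimum. Cells without a counted β segment still held transcripts of the β constant segments Trbc2 and Trbc1. In knockout-labelled cells Trbc2 stood at 1715 CPM with a δ segment alone, 2010 CPM with neither and 803 CPM with a β segment alone. In WT cells these levels were 1673, 754 and 1292 CPM. Trbc1 stood at 443, 316 and 186 CPM in knockout-labelled and 679, 37.7 and 228 CPM in WT cells. A γ segment was found in 27 of 41 and 34 of 35 cells with a β segment alone, and in 5 of 7 and 4 of 4 with a δ segment alone. V segments of the α locus had any UMI in 9 of 88 knockout-labelled and 3 of 71 WT cells.

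**Figure D4:**
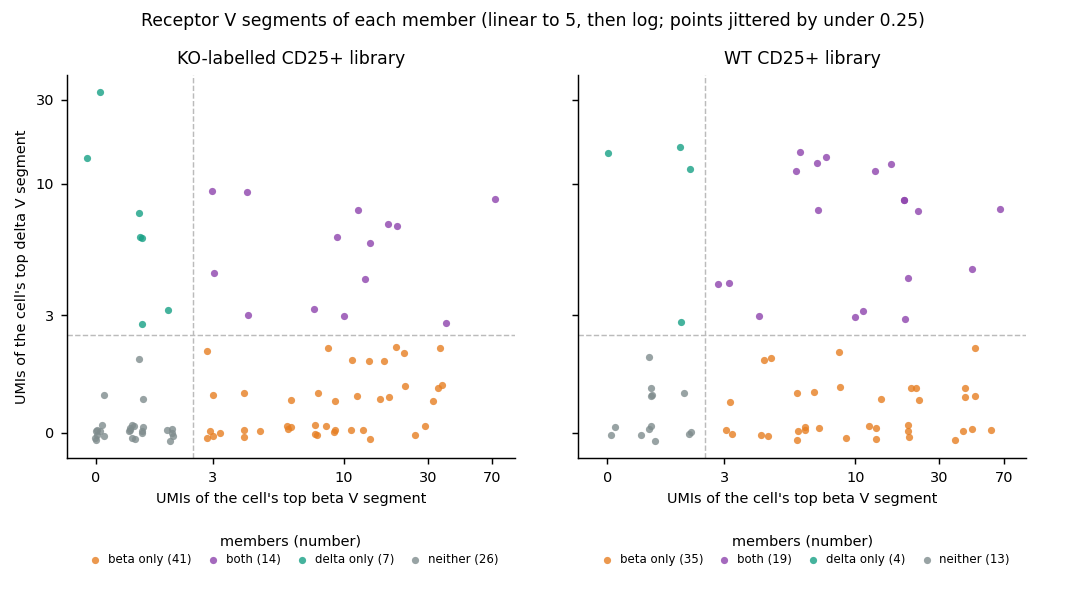
Each point is 1 of the 88 knockout-labelled (left) or 71 WT (right) selected cells, by the UMIs of its most abundant β (x axis) and δ (y axis) V segment, on axes linear to 5 and logarithmic above, with dashed lines at the minimum of 3 UMIs. Cells with both chains lie at the upper right (14 and 19), with a β segment alone at the lower right (41 and 35), with a δ segment alone at the upper left (7 and 4) and with neither at the lower left (26 and 13).

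The β segments were diverse, as 19 segments in knockout-labelled and 20 in WT cells reached 3 UMIs in at least 1 cell. Exactly 1 β segment did so in 40 knockout-labelled and 34 WT cells and more than 1 in 15 and 20, and the top segment had a median of 9 and 11.5 UMIs. Trbv13-2, printed above, had 101 UMIs in 43 knockout-labelled cells and 209 UMIs in 41 WT cells, whereas Trbv15 had 193 UMIs in 9 and 92 UMIs in 4 cells. Trbv15 was thus abundant in few cells and Trbv13-2 spread over many. Of the δ segments, Trdv5 had 52 UMIs in 15 knockout-labelled and 106 UMIs in 17 WT cells, and Trdv2-2 45 UMIs in 13 and 25 UMIs in 12 cells. Trav15-1-dv6-1 had 26 and 15 UMIs and Trav15-2-dv6-2 25 and 52 UMIs. Exactly 1 δ segment reached the minimum in 19 of 21 and 21 of 23 cells that had any. Trgv2 made up 63.3% of γ V UMIs in knockout-labelled and 65.9% in WT cells (459 and 631 UMIs), followed by Tcrg-V4 with 160 and 251 UMIs. Tcrg-V1, nearly identical to Trgv2 as printed above, had 91 and 40 UMIs, and the part of the counting in that split was not tested.

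Cells with a δ segment (21 knockout-labelled and 23 WT) were set against cells with a β segment alone (41 and 35), a division made after the data had been seen. The first were deeper, with medians of 9055 and 9322 UMIs, against 6395 and 7975 UMIs. Id3 stood at 430 CPM in knockout-labelled cells with a δ segment, against 206 CPM in those with a β segment alone, 2.09-fold higher (1.5 to 2.93). In WT cells it stood at 236 CPM, against 119 CPM, 1.99-fold higher (1.29 to 3.08). Egr1 was 1.77-fold (1.09 to 2.89) and 3.77-fold (2.55 to 5.70) higher, Nr4a1, an immediate target of receptor signals, 2.76-fold (1.46 to 5.40) and 1.77-fold (1.11 to 2.86), and Cd5 1.75-fold (1.06 to 2.90) and 2.42-fold (1.31 to 4.63). For these 4 genes the counting intervals leave out 1 in both libraries. Other genes that receptor signals induce passed in 1 library alone, Nab2 at 1.31-fold (0.789 to 2.15) and 2.56-fold (1.44 to 4.68) and Tox at 1.47-fold (1.10 to 1.97) and 1.19-fold (0.893 to 1.58). Pdcd1 was 2.14-fold (1.24 to 3.74) higher in knockout-labelled cells and 1.62-fold (0.869 to 3.06) in WT cells. Ptcra was at 0.561 (0.271 to 1.09) and 0.642 of its level in cells with a β segment alone, and Notch1 at 0.388 and 0.709. Trdc itself was at 1.08 (0.691 to 1.68) and 1.20 (0.811 to 1.78), with intervals that include 1. Etv5 had 14 UMIs with a δ segment and 2 with a β segment alone in knockout-labelled cells, and 3 and 2 in WT cells. Sox13 had 6 and 2 UMIs in knockout-labelled and 3 and 6 in WT cells. Cd28 of the β-selection list stood at 86.3 CPM in knockout-labelled cells with a β segment alone. It stood at 226 CPM with both segments and 357 CPM with a δ segment alone. In WT cells these levels were 106, 144 and 242 CPM. Lef1 of that list was mixed, at 846, 925 and 972 CPM in knockout-labelled and 549, 848 and 145 CPM in WT cells. Such genes were thus not confined to cells with a β segment alone.

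The 26 knockout-labelled and 13 WT cells with neither segment differed from cells with any β or δ segment in several genes of resting CD25+ cells. Ptcra was 3.90-fold (2.57 to 5.91) and 5.29-fold (3.14 to 8.72) above its level in cells with any β or δ segment, and Notch3 5.46-fold and 4.70-fold. Notch1 was 1.81-fold and 3.50-fold above it. Hes1 was 1.65-fold (0.899 to 2.92) and 4.68-fold (2.57 to 8.2) above it, and Bcl11b 1.69-fold (0.978 to 2.85) and 3.68-fold (2.23 to 5.86), so the knockout-labelled intervals include 1, as that of Rag2 does. Tcf7 of the same list was lower, at 0.763 and 0.524. Trdc was at 0.307 (0.129 to 0.633) in knockout-labelled cells and had 0 UMIs in WT cells with neither segment, against 110 UMIs in those with any. Ybx3 was at 0.623 and 0.274 and Srm at 0.696 and 0.192 of that level. In WT cells with neither segment, Pdcd1, Nab2, Cd5 and Fhl2 had 0 UMIs, whereas knockout-labelled ones had Pdcd1 at 138 CPM (21 UMIs). These cells were the shallowest, with medians of 4406 and 3506 UMIs and 53016 UMIs in all in the WT library, and the part of depth in their pattern was not tested.

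**Figure D5:**
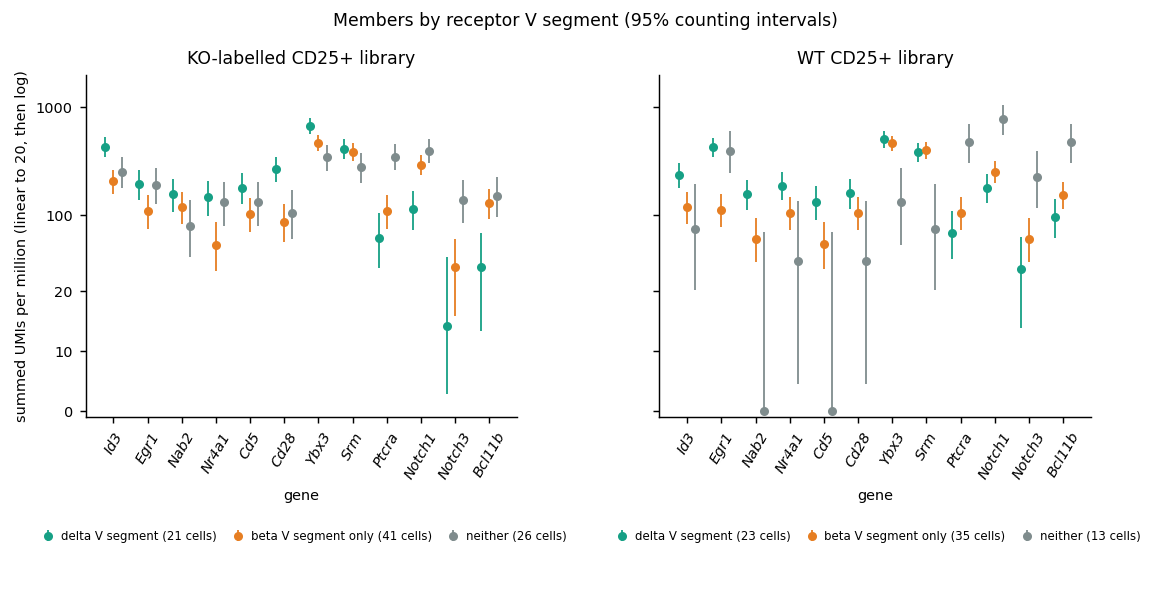
Level (CPM, linear to 20 and logarithmic above) of 12 genes in selected cells with a δ V segment, with a β V segment alone and with neither, for the knockout-labelled (left) and WT (right) CD25+ library; bars are 95% counting intervals. Id3 reads 430 and 206 CPM at the left and 236 and 119 CPM at the right for the first 2 classes, and Ptcra is highest in cells with neither.

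Levels by the number of Maf UMIs, which the rule used, are given as description. Cells with at least 2 Maf UMIs numbered 30 in the knockout-labelled and 22 in the WT library. They were deeper on average than cells with 1 in both libraries, and the part of depth in the levels below was not tested. Ptcra stood at 42.3 CPM in knockout-labelled cells with at least 2 Maf UMIs, against 228 CPM in those with 1, and at 54.5 CPM in WT cells, against 160 CPM. Pdcd1 ran the other way, at 173 CPM, against 84.0 CPM, in knockout-labelled cells and at 109 CPM, against 55.9 CPM, in WT cells. Bcl11b stood at 35.3 CPM, against 155 CPM, and at 81.7 CPM, against 201 CPM. Fhl2 stood at 74.0 CPM, against 42.0 CPM, and at 154 CPM, against 40.6 CPM. Ybx3 stood at 575 CPM, against 449 CPM, in knockout-labelled cells but at 445 CPM, against 454 CPM, in WT cells. Srm stood at 423 CPM, against 331 CPM, and at 386 CPM, against 355 CPM.

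Growth genes were counted next. Of 20 genes of Myc and ribosome biogenesis, 10 were higher than in Maf-zero cells in both libraries and 0 lower, and all 20 were higher than in Rag1-positive cells in both. Over all genes 3.11% and 12.6% were higher in these comparisons. Srm of this list is also a marker chosen from these same data. Myc stood at 493 CPM in knockout-labelled and 505 CPM in WT cells, 1.51-fold and 1.53-fold above Maf-zero cells. Nolc1, a nucleolar chaperone, was 1.92-fold and 1.74-fold above them and Rrs1, a ribosome assembly factor, 2.05-fold and 1.83-fold. Of 16 cell cycle genes tested, 4 helicase subunits of DNA replication (Mcm2, Mcm3, Mcm5 and Mcm6) were higher than in Maf-zero cells in both libraries and Pclaf was lower. Against Rag1-positive cells 15 of 16 were higher in both libraries and 0 lower. Mcm6 stood at 542 CPM, against 306 CPM, in knockout-labelled cells and at 488 CPM, against 280 CPM, in WT cells. Top2a, which peaks late in the cycle, was at 0.929 and 1.09 of the Maf-zero level, but the rule capped Mki67 and so bears on such genes.

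Among the other genes with the largest ratios over Maf-zero cells were secreted and surface factors. The chemokine Ccl4 stood at 85.8 CPM in 17 knockout-labelled cells, 3.91-fold (2.80 to 5.41) over Maf-zero cells, and at 181 CPM in 27 WT cells, 3.19-fold (2.55 to 3.97). Tnfsf11 (RANKL), a cytokine that matures the thymic medulla, was 3.83-fold (2.49 to 5.80) and 3.04-fold (2.12 to 4.28) higher. Tspan2, a tetraspanin, was 2.69-fold and 3.09-fold, Nab1, the paralogue of Nab2, 2.59-fold and 2.29-fold, and Lcp1, an actin-bundling protein, 2.25-fold and 2.21-fold higher. Spats2l (4.78-fold and 2.79-fold) and Shmt1, an enzyme of one-carbon metabolism (2.23-fold and 2.38-fold), were also among the 12 highest, as were Nfatc1, Nab2, Fhl2 and Pdcd1. At the low end, Lad1 had 0 UMIs in the selected cells of both libraries, against 28.6 and 41.3 CPM in Maf-zero cells. Xcl1, a chemokine, had 2 and 0 UMIs, and Tnfrsf4 (OX40) was at 0.140 and 0.0356 of the Maf-zero level. Mxd4, a Myc antagonist, was at 0.259 and 0.294, and Atoh8 at 0.262 and 0.259. Mst1r, Gadd45b, Letm2, H1fx, Snx20, Zfp385a and Rag2 completed the 12 lowest, between 0.116 and 0.314 of the Maf-zero level.

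Over Rag1-positive cells, Nab2 (112-fold and 77.2-fold) and Pdcd1 (31.6-fold and 30.6-fold) were among the 12 highest genes, with Nr4a1, Cd5, Fhl2, Ikzf3, Ccl4, Cd6, Id3, Klf2, Shmt1 and Lcp1. Nr4a1 was 12.7-fold (9.12 to 17.5) and 37.9-fold (26.3 to 55.1), Id3 18.9-fold and 7.86-fold, Ikzf3 14.2-fold and 12-fold, and Cd6, a relative of Cd5, 8.26-fold and 10.8-fold higher. Klf2, which guides thymic exit, was 6.56-fold and 7.67-fold higher, but on 6 knockout-labelled and 8 WT cells. The lowest were Mst1r, Cldn4, Olfr1507, Rag2, Atoh8, Ptcra, Tdrd5, Mxd4, Vwce, Adamtsl2, Myzap and H1fx. Of these, Mxd4 was at 0.156 and 0.180 and Ptcra at 0.169 and 0.142 of the Rag1-positive level.

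Genes of other cells were checked in the same way. Of 7 regulatory T cell genes tested, 4 (Ctla4, Tnfrsf9, Tnfrsf4 and Tnfrsf18) were lower in both libraries than in Maf-zero cells and 0 were higher, so some Maf-zero cells carried them. Ctla4 stood at 49.6 CPM, against 103 CPM, in knockout-labelled cells and at 29.3 CPM, against 93.7 CPM, in WT cells. Trac, the constant segment of the α chain, stood at 7.52 and 11.4 CPM, against 13.0 and 16.1 CPM. Cd3e stood at 1207 and 1550 CPM, so the CD3 complex was there, with ratios of 1.05 and 1.09 to Maf-zero cells. The gate was CD4+ by label, and Cd4 at 0 UMIs in these cells is part of the rule. Cd79a, Ebf1 and Pax5 of B cells, Krt8, Krt5, Foxn1 and Psmb11 of thymic epithelium, H2-Aa, Itgax, Flt3, Siglech and Csf1r of myeloid and dendritic cells, all 5 erythroid genes, and Ncr1, Klrb1c, Klrd1, Tbx21, Eomes, Il1rl1 and Il13 of innate lymphoid cells had 0 UMIs in both libraries. Other genes of these lists were detected. The B cell list summed to 40.6 and 40.7 CPM, nearly all Cd79b, against 67.4 and 67.0 CPM in Maf-zero cells. The thymic epithelium list summed to 123 and 106 CPM (Epcam and Ccl25), against 187 and 166 CPM. The myeloid and dendritic list summed to 110 and 134 CPM, against 145 and 172 CPM, and the innate lymphoid list to 301 and 459 CPM, against 249 and 346 CPM. Nkg7, a granule protein also on that list, was 1.84-fold and 1.93-fold above Maf-zero cells. Of 14 early progenitor genes, 3 were tested in the knockout-labelled library, and 2 were higher than in Maf-zero cells, Bcl11a at 1.54-fold (0.94 to 2.42) and Mef2c at 2.24-fold (1.25 to 3.83). In the WT library 2 were tested and both were lower, Bcl11a at 0.632 (0.309 to 1.16) and Kit. All 3 were higher by the fold in knockout-labelled than in WT cells. Over all genes, 607 of 7175 were higher than in Maf-zero cells in the knockout-labelled library, and 1205 of 7151 lower in the WT library. Between the libraries, 9.05% of all genes were higher in knockout-labelled cells. The 14 genes together had 61 UMIs in knockout-labelled and 32 UMIs in WT cells, so these calls rest on few counts. Kit stood at 24.1 CPM, against 28.0 CPM, and 14.7 CPM, against 25.2 CPM, and Cd44 had 0 UMIs in both libraries.

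Knockout-labelled and WT cells were last compared with each other. Of 6799 genes, 615 (9.05%) were higher and 805 (11.8%) lower by 1.5-fold in knockout-labelled cells, 20.9% in all, against 3.74% in Maf-zero and 3.91% in Rag1-positive cells. The selected cells held 664690 and 614148 UMIs, against 5383741 and 5718145 UMIs in Maf-zero cells, and counting scatter moves more genes past a fold at lower sums. Id3 stood at 287 CPM (248 to 331) in knockout-labelled and 163 CPM (132 to 198) in WT cells, a ratio of 1.76 (1.38 to 2.27), against 1.08 in Maf-zero and 0.732 in Rag1-positive cells. Pdcd1 had a ratio of 1.63 (1.12 to 2.39), against 1.05 and 1.58, and Maf one of 1.18 (0.912 to 1.54). Cd5 was at 1.64 (1.15 to 2.37), against 0.782 and 1.16, and Slc7a5, an amino acid transporter, at 1.63 (1.18 to 2.28), against 0.996 and 0.860. Egr1 ran the other way, at 0.587 (0.454 to 0.757), against 0.710 and 0.664. With 1 library a group, these ratios describe the libraries and not the genotypes.

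Several of the largest ratios between the libraries were shared by the other CD25+ cells. The class I gene H2-Q7 was 8.83-fold (at least 4.44 by its interval) higher in knockout-labelled cells, 4.77-fold in Maf-zero and 6.57-fold in Rag1-positive cells, and Ly6a (Sca-1), a gene induced by interferon, 5.66-fold, 2.47-fold and 2.81-fold. Isg15, a ubiquitin-like protein induced by interferon, was 2.61-fold, 1.82-fold and 1.77-fold higher, Mzb1 2.86-fold, 2.00-fold and 2.02-fold and H2-Q4 2.74-fold, 2.39-fold and 2.79-fold. Ifi27l2a was 13.9-fold (5.14 to 52.5) higher in the selected cells but 1.27-fold in Maf-zero and 2.38-fold in Rag1-positive cells, on 11 knockout-labelled and 2 WT cells. Gmip, Gbp9, Med9, Mrpl27, St3gal1 and Ms4a6b, between 2.17-fold and 2.55-fold, completed the 12 highest. At the low end, the chaperone Hspa8 was at 0.249 (0.230 to 0.269) of the WT level, against 0.212 and 0.201 in the other groups, Thy1 at 0.296, against 0.302 and 0.303, and Scin, an actin-severing protein, at 0.217, against 0.178 and 0.169. Emid1, Egln1, Endou, Zeb2, Mta1, Ypel2 and Pcbd2, and the heat shock genes Hspa1a and Hspa1b, completed the 12 lowest, between 0.181 and 0.374. The γ constant segments Tcrg-C1 and Tcrg-C2 were at 0.294 (0.218 to 0.392) and 0.484 (0.380 to 0.614) of the WT level, against 0.463 and 0.435 in Maf-zero and 0.363 and 0.357 in Rag1-positive cells. The recombination factor Dntt was at 0.519, against 0.608 and 0.658. γ transcripts were therefore lower in the knockout-labelled library in cells with and without Maf.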

How the data were processed

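The authors deposited raw UMI counts per gene and barcode for 32285 genes, not normalized. Per the submitters' processing notes, Cell Ranger 6.2.1 and the mm10 build were used, but the version in the file headers is 6.1.2. The sources used here name neither the counting annotation nor the way cells were called. The lowest deposited barcode held 500 UMIs. Barcodes with fewer than 500 genes or at least 10% mitochondrial UMIs were left out, which kept 10110 of 10801 knockout-labelled and 8215 of 8609 WT CD25+ barcodes. Doublets were not removed in the main values; removing the highest Scrublet scores (scanpy 1.11.5) was an alternative and took 1 knockout-labelled and 2 WT cells of those described.

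The cells and the gene lists were chosen with earlier results of these data known. UMIs were summed over cells in each library and divided by all UMIs of those cells (Python 3.11.15, scipy 1.17.1). Intervals are exact 95% Poisson intervals for levels, exact conditional binomial intervals for ratios and Clopper-Pearson intervals for shares; they were tested on simulated data. With 1 library a group no p-value was computed, and a value measures these libraries. Genes were named by a fixed rule: the 12 highest and 12 lowest ratios among genes with at least 20 CPM on either side, 50 UMIs and an interval leaving out 1, in both libraries where 2 were used, without genes of the membership rule, receptor segments, sex chromosome, mitochondrial, ribosomal protein, haemoglobin and unnamed genes, beside the listed genes. Positions and V exon sequences came from GENCODE vM21 (GRCm38), in which 32158 of 32285 gene identifiers were found; V exons were aligned with Biopython 1.88. One listed marker was misspelt at first and was read as Tfrc. Some genes that the rule or the lists hold are not reported here.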

Additional observations from a re-analysis of the deposited data

Results flagged for a closer look

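In 3 of the genes that were named or listed, the counting intervals placed the selected cells above the cells they were set against in the knockout-labelled library and below them in the WT library. The difference between the libraries was not tested. Gm42418, a transcript that overlaps ribosomal RNA, stood at 12874 CPM in knockout-labelled cells, against 11412 CPM in Maf-zero and 9328 CPM in Rag1-positive cells, ratios of 1.13 (1.10 to 1.15) and 1.38 (1.35 to 1.41). In WT cells it stood at 7586 CPM, against 10094 and 8651 CPM, ratios of 0.752 (0.729 to 0.774) and 0.877 (0.851 to 0.903).

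Il2rb, the IL-2 receptor β chain, stood at 22.6 CPM in knockout-labelled cells, against 11.7 CPM in Maf-zero cells, a ratio of 1.93 (1.02 to 3.43), and had 0 UMIs in WT cells, against 10.8 CPM, a ratio of 0 (upper bound 0.571). S1pr1, a receptor for thymic exit, stood at 18.1 CPM, against 6.87 CPM, a ratio of 2.63 (1.25 to 5.15), and had 0 UMIs in WT cells, against 8.22 CPM, a ratio of 0 (upper bound 0.76).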

How the results depend on the processing

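Of 1161 values of 194 gene ratios under the alternatives, 1013 stayed within the counting interval of the reported value and 148 moved outside it, 80 of these with at least 2 Maf UMIs, and 0 whose interval left out 1 changed direction. The share of selected cells was 0.297% and 0.268% (knockout-labelled and WT) with at least 2 Maf UMIs and 0.505% and 0.411% after thinning to 1500 UMIs. Counts of higher and lower genes in knockout-labelled over WT cells were 1145 and 1588 with at least 2 Maf UMIs, 994 and 1218 without the CPM filter, and 179 and 257 at 2-fold. Over Maf-zero cells, higher genes numbered 439 with at least 2 Maf UMIs, 377 with cells weighted equally, 323 without the filter and 25 at 2-fold, and lower genes 374 under a stricter barcode filter (1000 genes, 5% mitochondrial UMIs), 1700 without the filter and 164 at 2-fold. Over Rag1-positive cells, 373 were higher at 2-fold, and 2777 without the filter and 486 at 2-fold were lower. The summed β-selected list over Maf-zero cells was 1.85 and 1.40 with at least 2 Maf UMIs and 1.51 (knockout-labelled) with Rag2 also at 0; over Rag1-positive cells it was 2.70 and 1.98 with at least 2 Maf UMIs and 2.14 (knockout-labelled) with equal weights. The list of resting cells over Maf-zero cells was 0.529 and 0.722 with at least 2 Maf UMIs, 0.719 and 0.850 with Rag2 at 0 and 0.727 (knockout-labelled) under the stricter filter; over Rag1-positive cells it was 0.407 and 0.552, 0.589 and 0.695 with equal weights, and 0.586 (WT) with Rag2 at 0. The γδ list over Rag1-positive cells was 1.03 and 0.923 with equal weights, so the knockout-labelled ratio, otherwise below 1, crossed it. The share with a β segment was 46.6% and 62.0% at a minimum of 5 UMIs and 86.4% in WT cells with at least 2 Maf UMIs. The share with a δ segment was 14.8% and 19.7% at 5 UMIs and, in WT cells, 15.2% after thinned membership and 21.1% without segments of the α locus. The cause of these shifts was not tested. Alternatives with an undefined ratio, such as Rag2 where it was set to 0, have no value.

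No paired analysis was possible because each group has 1 library, which also leaves no replicate to drop. The summed depth of 614148 to 664690 UMIs and cells at 1 Maf UMI limit all values, and a count of 0 allows up to 3 UMIs.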

Other observations

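Cells with Maf that failed the rule in 1 point were described as values. Those with Gzma, a granule protease, numbered 82 in the knockout-labelled and 20 in the WT library. Their Pdcd1 level was 86.8 and 53.1 CPM, Id3 205 and 124 CPM and Ptcra 120 and 336 CPM. A β segment was found in 76.8% (66.2 to 85.4) of the knockout-labelled and in 15 of 20 WT cells, and a δ segment in 25.6% (16.6 to 36.4) and in 4 of 20. After thinning to 1500 UMIs, 45.1% and 10 of 20 had a β segment alone, against 31.0% and 46.5% of the selected cells. Both segments were then found in 1 of 82 and 2 of 20, and a δ segment alone in 3 of 82 knockout-labelled cells. Those with Rag1 numbered 30 and 59. Their Pdcd1 level was 16.3 and 8.05 CPM (3 UMIs each), Ptcra 692 and 663 CPM and Fhl2 10.9 and 16.1 CPM. A δ segment was found in 6.67% (0.818 to 22.1) of the knockout-labelled cells and in 0 of 59 WT cells, which allows a share of up to 6.06% by the exact interval.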
